A study of Mus musculus with 6 samples.

Results

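Sall1 was deleted in embryonic mouse kidneys with a tamoxifen-inducible Cre (CreER). The comparison holds 2 of the 6 arrays of the series: CreER knockout 5, titled CreER/flox, and CreER control 2, titled wt/flox. Both arrays were chosen by their titles. All 6 samples came from a hybrid of the 129 and C57BL/6 strains at E14.5, and the label descriptions place tamoxifen at E12.5, so that 48 hours lay between treatment and dissection. The protocol writes the inducible line as Sall1CreERfSall1, whereas the titles name CreER for the knockout alone; loss of Sall1 and presence of CreER therefore cannot be told apart in this pair. The sources used here do not state whether the CreER allele itself disrupts Sall1, which part of the gene is floxed, or how many embryos or kidneys were pooled. The other 4 arrays are 2 controls (titled WT) and 2 knockouts (titled KO) of the Six2Cre line, in which the Six2 promoter drives Cre in nephron progenitors; their labels also mention tamoxifen, and they serve below as a measure of spread and as a second deletion of the same gene.

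Sall1 encodes a zinc finger transcription factor of the cap mesenchyme, the layer of self-renewing nephron progenitors around each ureteric bud tip. These progenitors either stay undifferentiated or, under Wnt signals, form vesicles that become podocytes, proximal tubule, loop of Henle and distal tubule. A CreER protein stays out of the nucleus until tamoxifen is given, so the inducible deletion removes the gene from an organ that has already begun to form nephrons.

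Each value is a normalized level, the log2 of the background-subtracted spot intensity minus the 75th percentile of its array, and a difference is knockout minus control on that log2 scale. There was 1 array per CreER group, so no difference within this pair has a replicate check and none was tested; "higher" and "lower" refer to these 2 arrays. The error model of the scanner software, which covers measurement of the spots and not animals, gave errors of 0.20 to 0.36 for the differences of the genes described. A probe's level says nothing about its level relative to another gene's. In whole kidneys, fewer cells of a type and less RNA per cell cannot be told apart.

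The knockout array measured dim transcripts less well than its control. On CreER knockout 5, 71.8% of probes were well above background, against 80% to 82.9% on the other 5 arrays, and the SD of its negative control spots was 4.01 against 1.46 to 1.61. Its dimmest signal well above background lay at -6.42, and those of the other arrays lay between -8.12 and -7.87. The median SD of repeated spots was 0.05 on it and 0.03 on its control. For 1268 named genes the signal was well above background on the control array alone, and for 10 on the knockout array alone. Folds are therefore given only for the 22934 genes or unnamed probes, of 33223, that were well above background on both arrays; 13834 of them were named genes.

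Among these 22934, 95 (0.414%) lay 2-fold or more below the control on the knockout array and 293 (1.28%) lay 2-fold or more above it; 61 and 175 of them were named. The knockout level lay below all 3 control arrays of the series for 82 of the lower ones (0.358%) and above all 3 for 249 of the higher ones (1.09%). The excess of higher calls sat among dim transcripts: 181 of the 293 fell in the dimmest 4587 of these features, where 32 were lower. Above the median level of all 22934 features, 30 were higher and 15 lower. Under normexp, another background correction, 41 were lower and 110 higher. With features detected on either array kept, 645 were lower and 383 higher, so the direction of the excess turned. The lower detection on the knockout array moves with that excess, and its part in it was not tested.

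**Figure D1:**
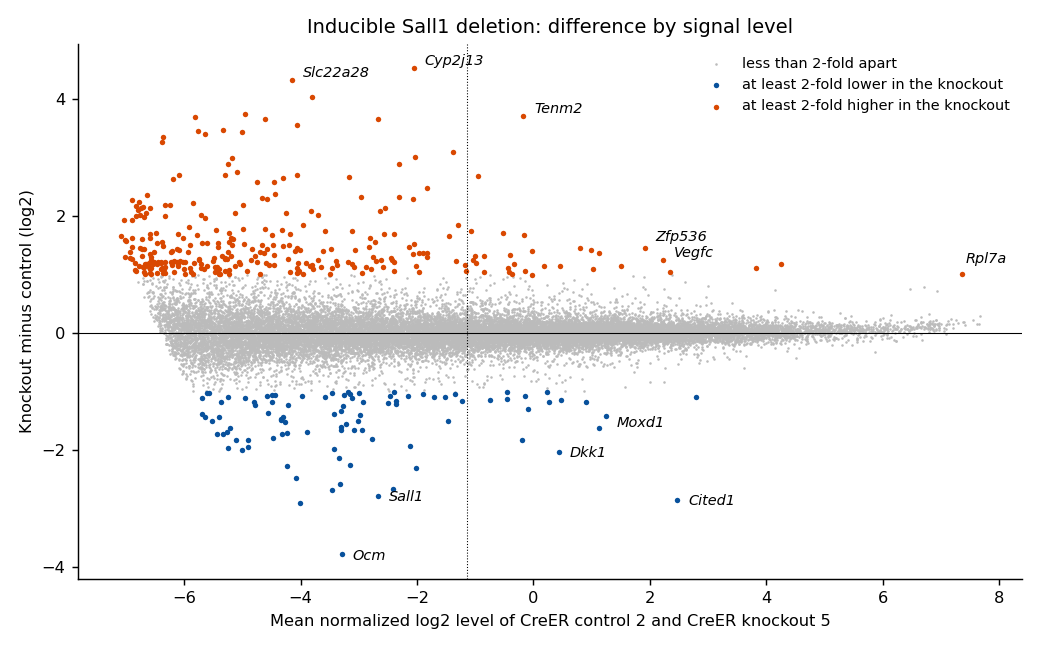
Difference between CreER knockout 5 and CreER control 2 (log2, vertical axis) against the mean normalized log2 level of both arrays (horizontal axis), 1 point per gene or unnamed probe well above background on both; the dotted line is the median level. Blue points are at least 2-fold lower (95) and orange points at least 2-fold higher (293) in the knockout, and 181 of the latter lie among the dimmest 4587 features.

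Differences between 2 control arrays or 2 knockout arrays give a scale for these counts. The pair's differences had a robust SD of 0.18 around a median of 0.01. Between the 2 Six2Cre controls, which lay on different slides, 9.8% of features were at least 2-fold apart, and between the 2 Six2Cre knockouts 9.82%, with robust SDs of 0.55 and 0.50. Between Six2Cre control 2 and CreER control 2, both on slide 2 like the knockout, 1.9% were at least 2-fold apart and the robust SD was 0.17. The counts in the CreER pair were thus no larger than those between these same-slide controls, which differ in line. The 2 controls also differed in muscle signal: the summed level of the muscle list, described below, was 66.9 on Six2Cre control 2 and 6.7 on CreER control 2. How much this adds to the 1.9% was not tested. For many genes below, though not all, the levels on the other control arrays are given as well.

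Sall1 itself was the first point of comparison. It read -1.28 on the CreER control and -4.06 on its knockout, while the Six2Cre controls stood at -1.38 and -0.77 and the Six2Cre knockouts at -2.65 and -2.00. The CreER knockout was thus the lowest of the 6 arrays and the 3 controls were the highest. The difference was -2.78, or 6.86-fold, and -2.21 with another background correction (normexp, described with the processing). The array carries 1 Sall1 probe, and whether it lies within the floxed sequence is unknown here.

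Of the other Sall genes, which encode related zinc finger proteins, only Sall3 differed by more than the robust SD in the direction of Sall1. Its brighter probe read -2.60 on the control and -3.52 on the knockout, a difference of -0.91, and its second probe gave -0.69. The Six2Cre pairs gave -2.31 and -1.68 for the same probe. Sall2 differed by 0.28 and Sall4 by 0.13. Sall proteins recruit the NuRD complex, a chromatin remodelling and deacetylase complex; the list of Sall proteins with NuRD had a median of 0.01 over 18 members, and the NuRD member farthest from 0 was the deacetylase Hdac2 at -0.40.

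**Figure D2:**
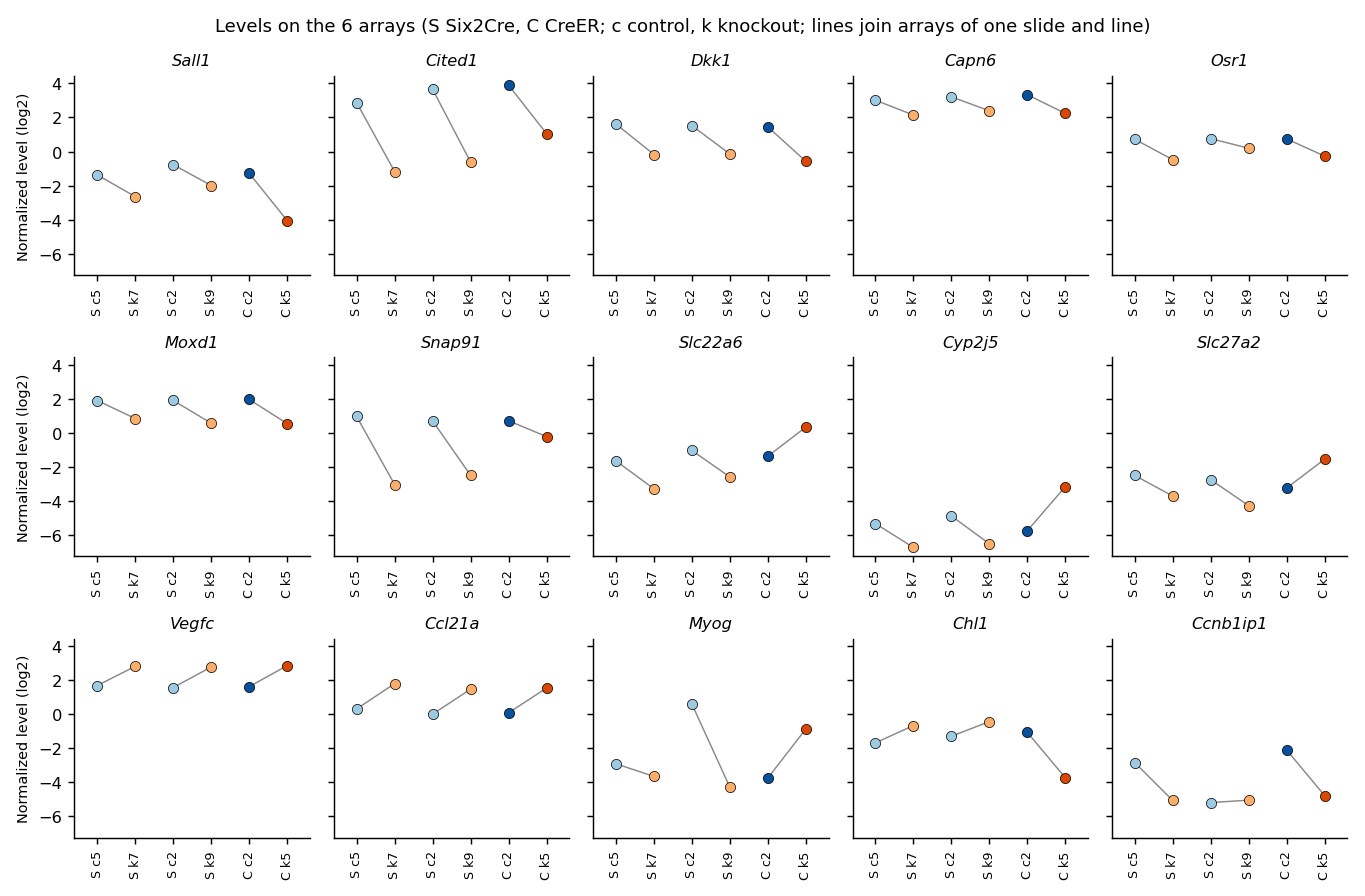
Normalized log2 levels (vertical axis) of 15 genes on the 6 arrays, with grey lines joining the control and knockout of each line and slide. Sall1, Cited1, Dkk1, Capn6, Osr1 and Moxd1 are lower on the knockout array of all 3 pairs, Slc22a6, Cyp2j5 and Slc27a2 are higher on CreER knockout 5 and lower on both Six2Cre knockouts, and Myog stands highest on Six2Cre control 2.

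Cited1, a transcriptional co-regulator that marks the least committed cap mesenchyme, had a level of 3.90 on the CreER control and of 1.05 on its knockout. The Six2Cre controls read 2.88 and 3.66 and their knockouts -1.18 and -0.62. All 3 knockout arrays lay below all 3 controls, and Cited1 (7.19-fold lower in the CreER pair) was the lowest by difference of the named genes above the median level of all features.

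Dkk1, a secreted inhibitor of Wnt signalling, came next. Its levels were 1.44 on the CreER control and -0.58 on the CreER knockout, 1.61 and 1.52 on the Six2Cre controls, and -0.18 and -0.15 on the Six2Cre knockouts. The CreER knockout was the lowest of the 6 arrays. The difference was -2.02 (4.07-fold lower), the second Dkk1 probe gave -2.15, and normexp left it at -1.93.

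The start-site regions of these 2 genes are shown because they are the lowest transcripts of the pair above the median level and because both stand in the list of Wnt targets. The sequences are the 250 bases before the RefSeq start site, read 5′ to 3′ on the gene's strand in the build GRCm38.p6; for Cited1, RefSeq gives 3 start sites and the first is shown (chrX:102252182-102252431, minus strand), and for Dkk1 the only one (chr19:30549497-30549746, minus strand). Capitals mark CTTTGA on either strand, the core that TCF and LEF factors of the Wnt pathway are known to bind, and TATAAA on the gene's strand.
Cited1: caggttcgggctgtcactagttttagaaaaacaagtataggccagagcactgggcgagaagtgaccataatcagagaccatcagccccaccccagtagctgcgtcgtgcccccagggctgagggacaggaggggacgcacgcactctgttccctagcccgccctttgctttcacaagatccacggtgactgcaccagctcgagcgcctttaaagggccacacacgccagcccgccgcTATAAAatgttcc
Dkk1: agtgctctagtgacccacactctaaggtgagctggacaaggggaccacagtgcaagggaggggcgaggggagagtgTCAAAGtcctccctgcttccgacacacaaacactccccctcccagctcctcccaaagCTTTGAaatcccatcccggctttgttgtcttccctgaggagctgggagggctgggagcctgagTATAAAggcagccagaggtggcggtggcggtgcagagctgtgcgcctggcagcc
The Dkk1 window held 2 CTTTGA matches, 1 on each strand, and 1 TATAAA. The Cited1 windows held 0 CTTTGA matches at any of the 3 start sites, and the first and second each held 1 TATAAA. Over 32851 windows of the same 250 bases, 13.8% held CTTTGA and 7.6% held TATAAA. A match describes letters in the window and is not evidence of a bound factor.

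The list of 35 nephron progenitor genes had 34 members on the array, all 34 well above background on both CreER arrays. Of these, 21 were lower and 13 higher on the knockout, with a median of -0.19 (0.01 over all features), and 5 were at least 2-fold lower against 0.441% of all named genes. Sall1, the deleted gene itself, is among the 5, and its lower level is no separate result about the list. The knockout was below all 3 controls for 19 members and above all 3 for 7. In the Six2Cre pairs the same list had medians of -0.74 and -0.83. The summed linear level of the list, in units of each array's 75th percentile, was 104.5 on the CreER control and 76.5 on the knockout, with 94.4 and 105.5 on the Six2Cre controls and 51.2 and 52.1 on their knockouts.

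Behind Cited1 and Sall1, the lowest progenitor genes lay between 2.00-fold and 2.14-fold down. Capn6, a calpain-family protein without protease activity, read 3.34 on the control and 2.24 on the knockout, with 3.02 and 3.21 on the Six2Cre controls. Osr1, a transcription factor of the early nephrogenic lineage, read 0.74 and -0.27, and its second probe differed by -0.93. Robo2, the Slit receptor that limits where the ureteric bud forms, was named after its values were seen and read -1.90 and -2.90. For all 3 genes the CreER knockout lay below the 3 controls.

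Other defining progenitor genes, picked here by name after their values were seen, differed less. Six2, which keeps progenitors undifferentiated, read 0.93 on the control and 0.43 on the knockout (-0.50), against -1.40 and -1.79 in the Six2Cre pairs. Gdnf, the ligand that draws the ureteric bud to branch, differed by -0.74, and Eya1, a partner of Six2, by -0.22. Wt1, needed for progenitors and podocytes alike, differed by 0.17. Among the members higher on the knockout were Pax2 at 0.37 and Peg10 at 0.33. The progenitor list was thus not uniformly lower: Cited1 was 7.19-fold lower, while Pax2 and Wt1 were not lower. The Wt1 difference was smaller than its measurement error of 0.20, and Pax2 was dim, at -4.63 and -4.26. A rise cannot be read from either.

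Early nephron genes, which mark pretubular aggregates, vesicles and S-shaped bodies, were uneven. Of 27 members well above background, 19 were lower and 8 higher, with a median of -0.27, and 3 were at least 2-fold lower, against 0.441% of all named genes: Dkk1, Irx2 and Hes5. Irx2, an Iroquois homeobox factor of intermediate nephron segments, read -2.12 on the control and -3.77 on the knockout, and its second probe differed by -1.98. Hes5, a Notch target, read 0.11 and -1.02.

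Hes5 was already lower on CreER control 2 than on the Six2Cre controls, which read 1.31 and 1.21. At the other end, the cadherin Cdh4 was 0.83 higher, the nephron lineage factor Pax8 0.51 higher and Wnt4, the signal that drives the mesenchyme to epithelium, 0.39 higher. In both Six2Cre pairs Wnt4 was lower, at -0.60 and -0.77.

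The signalling lists centred near 0 apart from single members. Of 19 Wnt targets, 11 were lower and 8 higher (median -0.13), and after Cited1 and Dkk1 the lowest was the receptor Lgr5 at -0.80; Sp5, a transcription factor downstream of beta-catenin, was highest at 0.66. Of 22 Notch pathway genes, 11 were lower and 11 higher (median 0.00), led by Hes5 and by Lfng, which modifies Notch receptors, at -0.86. Of 19 FGF targets 0 were at least 2-fold apart (median -0.01), the highest being Il17rd, an FGF signalling inhibitor, at 0.60. Of 30 BMP and TGF-beta genes 0 were at least 2-fold apart (median 0.01), with Bmp5 highest at 0.75 and the BMP inhibitor Grem1 lowest at -0.41. Under normexp Bmp5 differed by 0.56 and the dim Grem1 by -0.01.

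Ureteric bud tip genes, which are expressed next to the progenitors, had a median of -0.15 over 17 members, 13 lower and 4 higher. At least 2-fold lower were 3 of the 17, against 0.441% of all named genes. Moxd1, a monooxygenase-like protein, read 1.96 on the control and 0.54 on the knockout, against 1.89 and 1.90 on the Six2Cre controls and 0.83 and 0.56 on their knockouts. All 3 knockouts lay below all 3 controls. Sox8 was 1.65 lower on its brighter probe and 0.81 lower on the other, and Tmem59l was 1.14 lower. Sox8 was higher on CreER control 2 (-2.48) than on the Six2Cre controls, which read -3.80 and -3.39, against -4.12 on the CreER knockout.

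Adamts18, a secreted protease, was the exception among the tip genes, with -2.66 on the control and -1.28 on the knockout (1.38). Ret, the tip's defining receptor, was not well above background on the knockout array and so has no fold. In the ureteric trunk and collecting duct list 21 of 24 members were higher, by 0.77 at most (the uroplakin Upk3a), with a median of 0.08 and 0 members at least 2-fold apart.

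Differentiated tubule genes split between segments. In the proximal tubule list, 31 of 34 members on the array were well above background on both arrays, 13 lower and 18 higher, with a median of 0.14; 4 were at least 2-fold higher against 1.265% of all named genes, and 1 was at least 2-fold lower. The Six2Cre pairs gave medians of -2.15 and -1.94 for the same members. The summed level was 20.04 on the CreER control and 22.73 on the CreER knockout, with 22.11 and 23.26 on the Six2Cre controls and 14.02 and 12.15 on their knockouts.

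The higher members were transporters and metabolic genes of the mature tubule. Slc22a6, which encodes the organic anion transporter OAT1, read -1.38 on the control and 0.33 on the knockout; the Six2Cre controls read -1.65 and -1.04 and their knockouts -3.30 and -2.60. The CreER knockout was thus the highest of the 6 arrays and the Six2Cre knockouts the lowest, and the CreER difference was 3.27-fold. Slc27a2, a fatty acid transport protein, went from -3.25 to -1.56 (3.22-fold higher), again above all 3 controls.

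Slc5a12, a sodium-coupled lactate transporter, read -8.04 and -4.69, close to the limit of detection on the control, and its difference of 3.36 became 1.19 under normexp. Slc2a2, the facilitative glucose transporter GLUT2, went the other way, from -2.65 to -3.98 on its brighter probe and by -0.82 on the other. Markers that were many-fold lower in the Six2Cre knockouts differed little here. Hnf4a, a regulator of proximal identity, read -1.62 and -1.52, and the phosphate transporter Slc34a1 read -1.29 and -1.41. The Six2Cre pairs gave -3.81 and -2.92 for Hnf4a; both it and Slc34a1 were picked by name after their values were seen.

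Loop and distal tubule genes leaned lower, at 12 of 17 members (median -0.24), and 3 of them passed 2-fold, against 0.441% of all named genes. Their summed level was 23.32 on the control and 25.83 on the knockout. Most of that sum was Calb1, which also stands in the collecting duct list and read 4.06 and 4.31. The sum therefore says little about the other members. Sim2, a transcription factor, read -2.03 and -4.60. Umod, which encodes uromodulin of the thick ascending limb, read -3.61 and -5.07, and Slc12a1, its sodium-potassium-chloride cotransporter, -0.83 and -1.88. The Six2Cre pairs differed by more for both, at -2.98 and -3.06 for Umod and at -5.71 and -6.70 for Slc12a1. When only members above the median level were counted, Kcnj16, Wfdc15b and Calb1 were left, and the median was 0.07, the value of Wfdc15b. That filter dropped Sim2, Umod and Slc12a1.

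Podocyte genes were slightly higher, at 15 of 23 members with a median of 0.16, and the Six2Cre pairs had medians of -0.39 and -0.28. Ptpro, a podocyte receptor phosphatase, differed by 0.65. Nebl, a nebulin-related actin protein, was the single member at least 2-fold higher (1.13), with 0.43 under normexp.

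**Figure D3:**
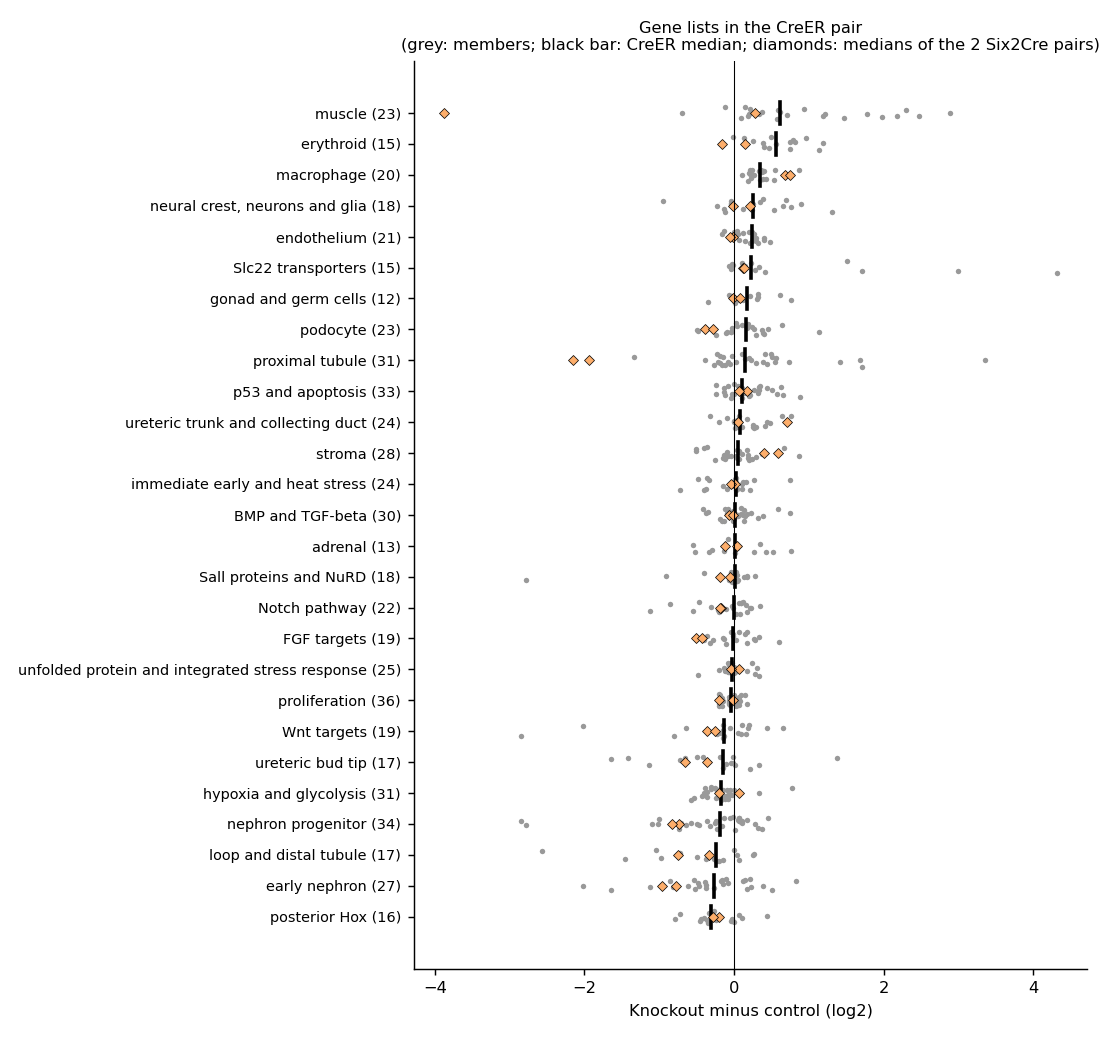
Knockout minus control differences (log2, horizontal axis) for the 27 gene lists, with the number of members well above background on both CreER arrays in parentheses; grey points are members and black bars the CreER medians. Orange diamonds are the medians of the same members in the 2 Six2Cre pairs; for the proximal tubule they lie at -2.15 and -1.94 while the CreER median is 0.14, and for muscle 1 of them lies at -3.87.

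The transcripts that were highest on the CreER knockout array were mostly dim ones on the control. The 20 named genes with the largest differences had control levels from -8.04 to -2.03 and were 5.03-fold to 22.97-fold higher. The knockout lay above all 3 controls for 17 of them, as for 249 of all 293 higher features. The ranking used CreER control 2, so this is partly set by the selection. Both Six2Cre pairs were also higher for 12 of the 20. For 6 they were at least 2-fold higher, as for 166 of all 13834 named genes. Under normexp 19 of the 20 remained at least 2-fold higher. The 20 lowest were 3.14-fold to 13.72-fold lower, and 16 remained at least 2-fold lower under normexp. Below all 3 controls lay 18 of the 20, as did 82 of all 95 lower features. At least 2-fold lower in both Six2Cre pairs were 13 of the 20, Sall1 among them, and 256 of all 13834 named genes.

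Several of the highest genes were also higher in both Six2Cre pairs. Tenm2, a teneurin adhesion protein, read -2.03 on the control and 1.67 on the knockout, and its second probe differed by 3.62. The Six2Cre pairs were higher too, at 1.88 and 2.37. All 3 knockouts lay above all 3 controls for Tenm2, and its difference of 3.70 was 3.40 under normexp.

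Nkx6-1, a homeobox factor of endocrine pancreas and motor neurons, followed the same pattern with -2.94 and 0.16 in the CreER pair and differences of 1.02 and 2.03 in the Six2Cre pairs. Deup1, a protein of multiciliated cells, was 2.71 higher, and the receptor Trhr 2.64 higher; their Six2Cre differences lay between 1.15 and 2.03. These genes share no common role, and normexp gave 1.82 for Deup1 and 0.99 for Trhr.

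Cyp2j13, a cytochrome P450, had the largest difference of any named gene, from -4.32 to 0.20, but its 3 probes disagreed, at 0.69 to 4.52. The Cyp2j genes are close paralogs that probes can share. Cyp2j5, known from proximal tubule, read -5.76 and -3.17, with 2.62 on its second probe, and Cyp2j11 was 1.501 and 1.691 higher on its probes.

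Among genes whose symbols start with Cyp, 5 of 39 (12.82%) were at least 2-fold higher and 0 lower, and among those starting with Slc, the solute carriers, 13 of 289 (4.5%) were higher and 2 lower. The share over all named genes was 1.265%, but among the dimmest 4587 features it was 3.95%. No family here was matched for signal level, so its share cannot be read as a trait of the family. Genes starting with Olfr, olfactory receptors for which kidney is not a usual site, had 9 of 151 (5.96%) higher; these 3 families were picked after their values were seen. In the Slc22 list of organic ion transporters, 4 of 15 members were at least 2-fold higher. They were Slc22a28 (4.31), Slc22a30 (2.99), Slc22a6 (1.71) and Slc22a2 (1.51, named after its value was seen), and 3 of the 4, Slc22a28, Slc22a30 and Slc22a6, are neighbours on chromosome 19. Slc22a28 differed by 2.66 and Slc22a30 by 1.61 under normexp.

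Above the median level of named genes, the higher genes included Zfp536, Ccl21a, Vegfc and Gstm1. Zfp536, a zinc finger repressor, read 1.18 and 2.64. Ccl21a, a chemokine of lymphatic endothelium, read 0.07 on the control and 1.52 on the knockout, and the Six2Cre pairs were 1.484 and 1.465 higher. Vegfc, a growth factor for lymphatic vessels, read 1.60 and 2.85, and the Six2Cre pairs were 1.13 and 1.21 higher. For Ccl21a and Vegfc all 3 knockouts lay above all 3 controls. Gstm1, a glutathione transferase, was 1.107 higher, with 1.098 on its second probe, and also higher in both Six2Cre pairs, at 0.87 and 0.85.

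Rpl7a, a ribosomal protein gene, was 1.01 higher on its brightest probe and 0.05 on another of its 3 probes, so its probes disagreed. Among named genes brighter than the median of named genes, a stricter limit than the median of all features, the 10 highest all lay above the 3 controls, and 9 were at least 2-fold higher under normexp. Of the 10 lowest by that limit, 6 lay below the 3 controls. Both rankings used CreER control 2, so lying beyond the controls is partly set by the selection.

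Muscle genes were high on 1 control array of the other line as well as on the CreER knockout. In the CreER pair 21 of 23 members were higher, with a median of 0.62, and 9 were at least 2-fold higher, against 1.265% of all named genes. Myog, the myogenic regulator, read -3.76 on CreER control 2 and -0.87 on CreER knockout 5, but 0.57 on Six2Cre control 2 and -2.93 on Six2Cre control 5. Myh3, embryonic myosin heavy chain, read -3.07 and -0.60 in the CreER pair and 3.80 on Six2Cre control 2. The knockout lay above all 3 controls for 0 of the 23 members. The summed level was 6.7 on CreER control 2, 9.8 on CreER knockout 5, 66.9 on Six2Cre control 2 and between 5.8 and 7.0 on the other Six2Cre arrays. The summed muscle level thus differed between the 2 Six2Cre controls, and its part in these differences was not tested.

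Blood and vessel genes were higher by small amounts across their lists. Of 20 macrophage genes 20 were higher, with a median of 0.34 and 16 above all 3 controls; the largest difference was that of the chemokine Ccl4 at 0.87. Both Six2Cre pairs were higher as well, with medians of 0.68 and 0.75. Of 21 endothelial genes 19 were higher, with a median of 0.24, from Gja5 at -0.16 to Robo4 at 0.47, and 16 lay above all 3 controls.

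Of 15 erythroid genes 14 were higher, with a median of 0.56. Hbb-y, an embryonic globin chain, read 3.66 on the control and 4.85 on the knockout, and Alas2, the haem synthesis enzyme of red cells, 0.94 and 2.08. CreER control 2 was the lowest of the 3 controls for both, the Six2Cre controls reading 4.34 and 4.35 for Hbb-y. For the erythroid list the knockout lay above all 3 controls for 4 of 15 members. The summed level was 102.9 on CreER control 2, 184.9 on CreER knockout 5 and 154.6 to 165.2 on the Six2Cre controls, so the CreER control was the lowest of the 6 arrays.

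Lists for other sources were close to 0 or scattered. Stroma had a median of 0.05 over 28 members, against 0.40 and 0.59 in the Six2Cre pairs, and 0 of them were at least 2-fold apart; Fibin, a secreted protein, was highest at 0.87. Of 18 neural crest, neuron and glia genes 11 were higher (median 0.25), with Fabp7, a glial fatty acid binding protein, at 1.31 and the neurofilament Nefl at -0.94. The adrenal list had a median of 0.01 over 13 members and the gonad and germ cell list 0.17 over 12. The 4 Y-linked genes well above background differed by -0.26 to 0.01.

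Programmes of stress, growth and position gave small shifts. Of 31 hypoxia and glycolysis genes 29 were lower, with a median of -0.17 and 0 at least 2-fold apart. The lowest were Bnip3, a mitophagy receptor, at -0.57 and the glycolytic enzyme Eno1 at -0.53, and the exceptions were Ndrg1 at 0.77 and Pfkp at 0.33. The knockout lay below all 3 controls for 3 of the 31 members; CreER control 2 had a summed level of 585.9 against 408.9 and 496.7 on the Six2Cre controls and 526.6 on the CreER knockout.

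Of 33 p53 and apoptosis genes 23 were higher (median 0.11), led by the cell cycle inhibitor Cdkn1a at 0.89, Zmat3 at 0.65 and Ccng1 at 0.63, all targets of p53; 14 members lay above all 3 controls. Proliferation genes were close together: their 36 members ranged from -0.20 (Ndc80 and the topoisomerase Top2a) to 0.17 (Foxm1), with a median of -0.04. Of 16 posterior Hox genes 13 were lower, with a median of -0.30 and 11 below all 3 controls. Hoxa10 read 2.03 and 1.56, and Hoxd13 and Hoxc8 were lowest at -0.79 and -0.72. Hoxd13 read -6.36 on the knockout, close to its limit of detection, and differed by -0.0042 under normexp, against -0.57 for Hoxc8. The immediate early list (median 0.02) and the unfolded protein list (median -0.03) had 0 measured members at least 2-fold apart, with Klf4 highest at 0.75 and Egr2 lowest at -0.72; Egr3, seen on the control array alone, is described below.

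Genes seen on 1 array only can be bounded, with the dim side set at the dimmest signal well above background on its array. By that bound 16 of the 1268 named genes seen on the control alone were lower by 2-fold or more. All 10 of those seen on the knockout alone were higher by 2-fold or more. The dimmest such signal was -6.42 on the knockout and -8.12 on the control. That gap made 2-fold easier to pass upward, so the 2 counts cannot be compared. Cyp26a1, the enzyme that degrades retinoic acid, read -2.96 on the control and was not well above background on the knockout, which made it at least 11.0-fold lower. Its Six2Cre controls read -3.43 and -3.001 and their knockouts -5.70 and -5.38. Egr3, an immediate early factor, was at least 4.12-fold lower, although it was at -8.35 and -8.22 on the Six2Cre controls. Tnfsf11, the RANK ligand, read -3.97 on the knockout and was at least 17.73-fold higher than on the control.

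The run of neighbouring genes with the most members at least 2-fold apart lay on chromosome 14. Runs joined genes at least 2-fold apart that lay within 10 measured genes of each other, in the order of the reference annotation. This run held 9 such genes among 26 measured ones, 4 lower and 5 higher. In all, 236 of 13834 named genes were at least 2-fold apart, 23 of them on chromosome 14. A run begins and ends at genes already called, so its density is partly set by how it was built. From one end the 9 genes were ccdc198, Ttc5, Ccnb1ip1, Ang, Rnase4, Ang2, Ang4, Ndrg2 and Rpgrip1. The 2 probes of Ttc5 disagreed, with differences of -1.18 on the brighter one and 0.57 on the other. Ang, Ang2 and Ang4 are angiogenin-family ribonucleases similar enough in sequence that their probes may share signal.

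Controls differed among themselves in this run. Ccnb1ip1, a regulator of meiotic crossing over, read -2.12 on the CreER control and -4.80 on the knockout, but -2.86 and -5.20 on the 2 Six2Cre controls and -5.08 and -5.06 on their knockouts. Rnase4 read 1.04 and -0.10 in the CreER pair and 1.02 and -0.12 on the Six2Cre controls. Rpgrip1 read -0.39 and 0.75 in the CreER pair and -1.59 and 0.61 on the Six2Cre controls. In these 3 genes Six2Cre control 5 and CreER control 2 stood together on one side and Six2Cre control 2 stood with the CreER knockout, so the split did not follow genotype. The X-linked Xlr3c and Xlr4b, whose paralogs may also share probes, were 1.82 and 1.61 lower in the CreER pair. For Xlr3c CreER control 2 read 0.72 and the Six2Cre controls -2.20 and -1.51, so the controls differed by more than the pair did. The sources used here do not state the strain mix of each embryo.

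**Figure D4:**
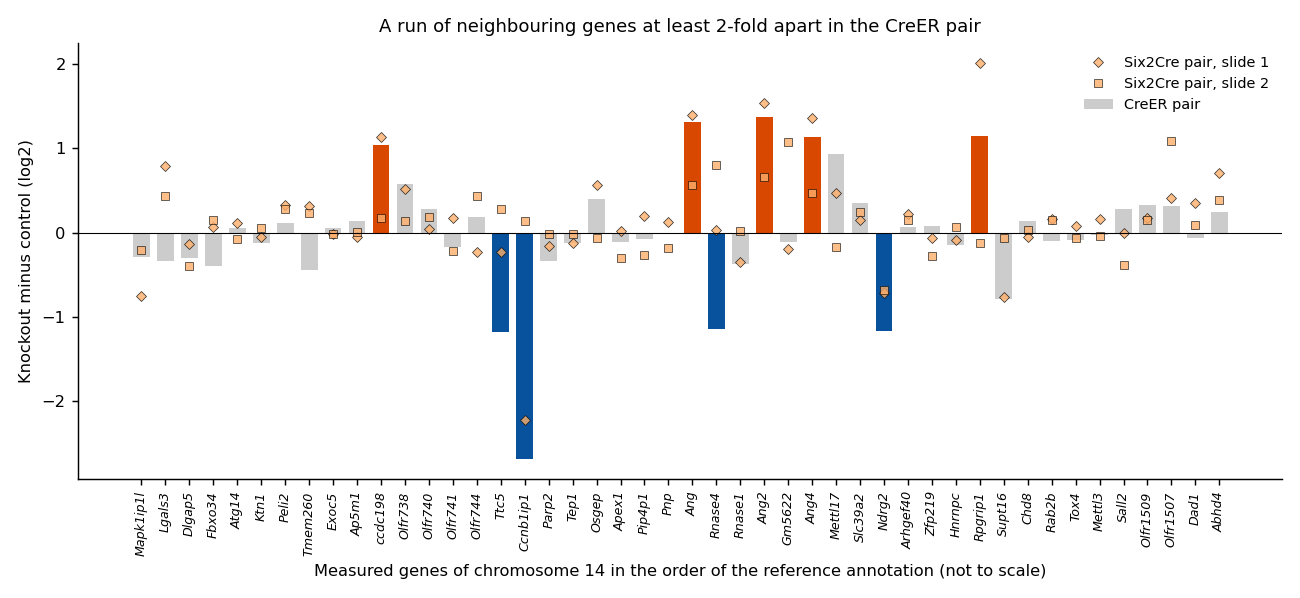
Knockout minus control differences (log2, vertical axis) for the measured genes in and around the run on chromosome 14, in annotation order (horizontal axis, not to scale). Bars are the CreER pair, blue or orange where at least 2-fold lower or higher, and symbols are the 2 Six2Cre pairs; Ccnb1ip1 lies at -2.68 in the CreER pair, -2.23 on slide 1 and 0.14 on slide 2.

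Many genes carry several probes, which gives a check that does not rest on 1 spot. Of 5030 genes with 2 or more probes above background, 41 had their brightest probe at least 2-fold apart, 39 of these had all probes on the same side of 0, and 24 had all probes at least 2-fold apart the same way, 9 lower and 15 higher. The 9 lower ones were Cadm3, Dkk1, Irx2, Ackr1, Fgf1, Npr3, Caln1, Adamts5 and Rnase4. Cadm3, a cell adhesion molecule, and Ackr1, a chemokine receptor, are near neighbours on chromosome 1; they read -2.02 and -4.28, and -2.51 and -4.10, in the CreER pair. For Cadm3 the Six2Cre controls read -4.20 and -3.98 and their knockouts -4.37 and -3.87, all near the CreER knockout. Npr3, the natriuretic peptide clearance receptor, was 1.29 lower on its brightest probe and between 1.29 and 1.45 lower over its 3 probes.

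The CreER pair was also set beside the Six2Cre pairs, in which 9% of features on slide 1 and 6.17% on slide 2 were at least 2-fold apart. No array is shared between the lines. Of the 256 named genes at least 2-fold lower in both Six2Cre pairs, 28 (10.9%) also passed 2-fold below the control in the CreER pair and 14 (5.47%) passed it above, with a median of -0.20; 173 were below 0 and 83 above. Of the 166 named genes at least 2-fold higher in both Six2Cre pairs, 25 (15.1%) were at least 2-fold higher and 6 (3.61%) lower, with a median of 0.32. Over all named genes, 0.441% were at least 2-fold lower in the CreER pair and 1.265% higher. Seen from the CreER side, 28 of its 61 lower named genes and 25 of its 175 higher ones passed 2-fold the same way in both Six2Cre pairs. The opposite way in both went 6 of the 61 and 14 of the 175. Of all 13834 named genes, 256 were at least 2-fold lower and 166 higher in both Six2Cre pairs.

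Across all features, limma's test of the difference between the lines' knockout effects (26930 features) called 0 genes at an adjusted p under 0.05 (0%), the lowest adjusted p being 0.885, with 616 at an unadjusted p under 0.05. That test takes the spread of the Six2Cre replicates for the single CreER arrays as well. The 9 alternatives run, which changed the scaling, background, filter, variance model or slide block or dropped a Six2Cre array, also called 0, with 403 to 3381 features at an unadjusted p under 0.05. A call of 0 does not show that the lines act alike; differences between them are given here as values.

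A group of 19 named genes passed 2-fold in all 3 pairs but in opposite directions in the lines; this group was defined after the values were seen. Of these, 13 were higher in the CreER pair and lower in both Six2Cre pairs, and several are known from proximal tubule. Cyp2d26, a cytochrome P450, read -0.99 on CreER control 2 and 0.68 on CreER knockout 5, with -1.04 and -0.34 on the Six2Cre controls and -3.74 and -3.40 on their knockouts. Gpx6, a glutathione peroxidase, read -2.21 and -0.37 in the CreER pair and was 2.85 and 2.94 lower in log2 terms in the Six2Cre pairs. Kl, which encodes the FGF23 co-receptor Klotho, read -5.70 and -4.55, and Ugt2b5, a glucuronosyltransferase, -3.99 and -2.25.

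The other 6 were lower in the CreER pair and higher in the Six2Cre pairs. Ptgfr, the prostaglandin F receptor, read -2.26 and -3.91 in the CreER pair and was 1.60 and 2.15 higher in the Six2Cre pairs. Adamts5, a matrix protease, read 0.05 and -0.96 and was 1.56 and 1.45 higher, and both of its CreER probes were at least 2-fold lower. Of the 20 lowest genes, Chl1, a neural adhesion molecule, was 2.67 lower in the CreER pair and 1.02 and 0.86 higher in the Six2Cre pairs.

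**Figure D5:**
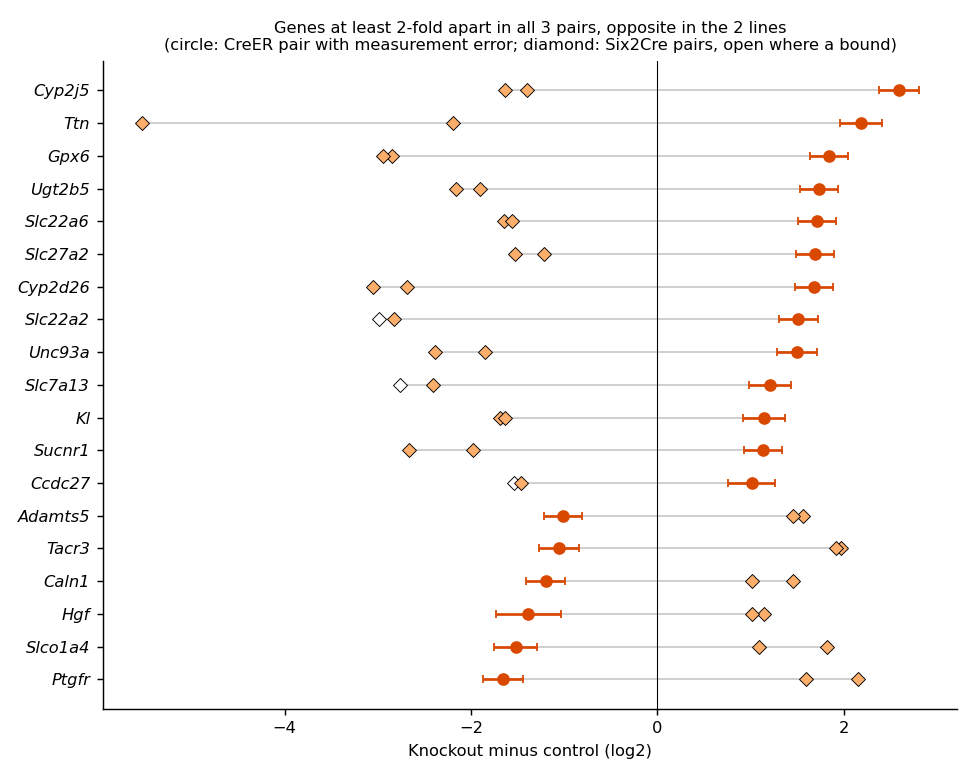
Knockout minus control differences (log2, horizontal axis) for the 19 named genes at least 2-fold apart in all 3 pairs with opposite direction in the lines. Circles are the CreER pair with the scanner's measurement error and diamonds the 2 Six2Cre pairs, open where the knockout was not well above background and the value is a bound; 13 genes are higher and 6 lower in the CreER pair.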

How the data were processed

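RNA of 6 embryonic kidney samples was hybridised to 1-colour (Cy3) Agilent arrays, 1 sample per array. Per the file headers, the deposited processed signal is a linear intensity from Feature Extraction 10.5.1.1, background-subtracted and detrended within each array but not normalized between arrays. From it, log2 minus each array's 75th percentile over non-control probes was computed; spots of a probe were averaged and spots called outliers on any array left out. A gene with several probes is represented by its brightest one. Disagreement between probes is stated for some of the genes described, not for all. A fold was given only where both arrays were well above background; otherwise a bound was used. Genes were named by rule: the 20 lowest and 20 highest, the 10 lowest and 10 highest above the median level of named genes, the 5 largest bounds and up to 10 genes 2-fold apart on all probes in each direction, the Sall genes, and the 3 lowest and 3 highest members of each of 27 lists. The members and lists were chosen with earlier results of these data known. The line difference was fitted with limma 3.58.1 in R 4.3.3 (lmFit and eBayes, Benjamini-Hochberg adjustment) and tested on simulated data. Alternatives were other scalings, background correction by normexp (offset 50), filters, the slide as a block and leaving out arrays. Labels do not say that samples were separate litters, so p-values measure the spread between these samples. Promoter sequences are from RefSeq (GRCm38.p6); no array coordinates were converted. Results for 4 genes that the rules would name are not reported here, and they are left out of the genes counted as opposite between the lines.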

Additional observations from a re-analysis of the deposited data

Results flagged for a closer look

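For 19 named genes the CreER pair and both Six2Cre pairs were at least 2-fold apart in opposite directions, which is what brought them here. Lower in the CreER pair and higher in the Six2Cre pairs were Ptgfr (-1.66), Slco1a4 (-1.52), Hgf (-1.38), Caln1 (-1.20), Tacr3 (-1.06) and Adamts5 (-1.01), as log2 differences of the CreER pair. Higher in the CreER pair and lower in the Six2Cre pairs were Ccdc27 (1.01), Sucnr1 (1.13), Kl (1.15), Slc7a13 (1.21), Unc93a (1.502), Slc22a2 (1.51), Cyp2d26 (1.67), Slc27a2 (1.69), Slc22a6 (1.71), Ugt2b5 (1.74), Gpx6 (1.84), Ttn (2.18) and Cyp2j5 (2.59). With 1 array per CreER group, limma's fit of the difference between the lines takes its spread from the Six2Cre arrays; it called 0 of all features (lowest adjusted p 0.885), which does not show whether these genes differ between the lines.

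Ttn is a muscle gene, and the summed muscle level was 66.9 on Six2Cre control 2; its part in the Ttn values was not tested. The medians of the podocyte list (0.157) and the proximal tubule list (0.1446) were above 0 in the CreER pair and below 0 in both Six2Cre pairs, and the difference between the lines was not tested for either list.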

How the results depend on the processing

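The counts of genes at least 2-fold apart depended on how dim signals were treated. Under normexp, 41 were lower and 110 higher, and the Sall1 difference was -2.21. With genes detected on either array kept, 645 were lower and 383 higher, which turned the excess. Above the median level of all features 15 were lower and 30 higher. There the loop and distal tubule list kept only Kcnj16, Wfdc15b and Calb1, and its median reversed to 0.0722. Other scalings gave 87 to 94 lower and 296 to 307 higher. Of single differences 1001 moved by less than the replicate spread and 49 by more. List medians had their own limit, a log2 shift of 0.2: 214 stayed the same and 1 moved, besides the reversal. The line difference called 0 under each of its 9 alternatives. The cause of these shifts was not tested. Normexp used median spot intensities. Pairing by replicate was not possible because control and knockout arrays share no replicate number. Pairing by slide was possible, since each slide held 1 Six2Cre control and 1 Six2Cre knockout, but the main fit did not use it. With the slide as a block, the line difference had 1380 features at an unadjusted p under 0.05 and a lowest adjusted p of 0.505. The higher detection limit of the knockout array limits what can be said of dim genes.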
